A study of Mus musculus with 8 samples.

Results

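The genes described here encode chaperones and quality-control proteins of the endoplasmic reticulum (ER) that the unfolded protein response induces. There are 10 of them: Hspa5, Hsp90b1, Calr, Pdia4, Hyou1, Sdf2l1, Creld2, Manf, Dnajb9 and Herpud1. They were taken from the deposited array table as rows whose platform annotation names 1 gene symbol, with the brightest row standing for a gene with several. Of the 10 genes, 8 had such a row, and each of these had exactly 1. The only row of Pdia4 also carries the microRNA gene Mir704, and the only row of Manf also carries Rbm15b, so no value is given for Pdia4 or Manf. The 8 measured genes stand among 30604 rows with 1 symbol and 65956 rows, called transcript clusters, in all.

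Signals came from 8 Affymetrix Clariom D mouse arrays, 4 per genotype. One group was wild-type (arrays WT675, WT676, WT742 and WT744) and the other homozygous Fbn1mgR/mgR (arrays named mgR611, mgR612, mgR613 and mgR614). The samples were aorta, ascending per the design text, of male C57BL/6J-background mice aged 10 weeks, with no treatment named, and both genotypes were offspring of Fbn1mgR/+ parents. Fibrillin-1, the product of Fbn1, builds the microfibrils of the extracellular matrix. The mgR allele is hypomorphic and carried in the germline, so no cell-type-specific driver limits it. Mice homozygous for it serve as a model of severe Marfan syndrome with aortic aneurysm. The Fbn1 transcript was not analysed here, and the genotypes therefore rest on the labels alone. Nothing in the labels ties each sample to an animal of its own, and a p-value here measures the spread among these samples, which may be technical.

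Secreted and membrane proteins fold in the ER with the help of chaperones, lectins and disulfide isomerases. When unfolded proteins build up, the sensors IRE1, PERK and ATF6 are released from the chaperone BiP, and the transcription factors XBP1, ATF4 and cleaved ATF6 raise the folding and degradation machinery. Smooth muscle cells and fibroblasts of the aortic wall secrete large amounts of matrix protein, which passes through this machinery. Many of the target promoters carry the ER stress response element, or ERSE, in which a CCAAT box bound by NF-Y lies upstream of a half-site for ATF6 or XBP1. The comparison asked whether these transcripts differ between the mutant and the wild-type ascending aorta.

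The promoter letters of the genes are shown first, because those that carry an ERSE can be set beside their signals. Sequences are those of RefSeq in build GRCm38.p6, and 8 of the 10 genes had an entry, Hyou1 and Manf being those without. In each entry the 250 bases before the annotated start were searched on both strands for ERSE (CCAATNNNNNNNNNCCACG), which 0.113% of all 32851 windows hold. ERSE-II, ATTGG and CCACG with any 1 base between them, is held by 0.0304% of these windows. Hspa5, Hsp90b1, Calr and Creld2 hold an ERSE, and Herpud1 holds an ERSE-II. Capitals mark the CCAAT and CCACG ends of each match, or their complements ATTGG and CGTGG. Sdf2l1 is shown as the gene with the largest difference, and its window holds neither motif.
Hspa5, chr2:34772000-34772068, plus strand: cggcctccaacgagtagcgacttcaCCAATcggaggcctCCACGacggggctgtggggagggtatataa
Hsp90b1, chr10:86705508-86705681, minus strand: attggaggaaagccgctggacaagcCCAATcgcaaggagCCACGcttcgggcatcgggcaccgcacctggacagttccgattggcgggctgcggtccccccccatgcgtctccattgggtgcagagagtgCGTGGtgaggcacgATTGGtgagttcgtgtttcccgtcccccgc
Calr, chr8:84847050-84847118, minus strand: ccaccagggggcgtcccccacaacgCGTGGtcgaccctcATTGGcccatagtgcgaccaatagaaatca
Creld2, chr15:88819495-88819563, plus strand: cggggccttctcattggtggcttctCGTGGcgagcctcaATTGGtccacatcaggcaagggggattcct
Herpud1, chr8:94386352-94386412, plus strand: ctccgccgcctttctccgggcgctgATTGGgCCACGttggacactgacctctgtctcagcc
Sdf2l1, chr16:17132384-17132503, minus strand: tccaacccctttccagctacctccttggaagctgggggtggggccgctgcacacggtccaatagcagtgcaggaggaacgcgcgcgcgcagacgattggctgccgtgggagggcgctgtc

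The ERSE of Hspa5 begins 65 bases before the start and reads along the gene. Hsp90b1 holds a pair, which begin 212 bases before the start on the same strand and 107 bases before it on the opposite strand. The matches of Calr (162 bases before the start) and Creld2 (126 bases) lie on the opposite strand. The ERSE-II of Herpud1, a compact form in which 1 base separates the boxes, begins 52 bases before the start. Other searches took the XBP1-type element in the forms TGACGTGG (0.563% of windows) and TGACGTGA (0.35%), and the CARE element of ATF4 and CHOP, TGATGNAAT (0.816%). Hspa5 also holds TGACGTGA, 157 bases before its start, and no other search matched one of the genes. None of the searched letters lie in the windows of Pdia4, Sdf2l1 or Dnajb9. A match is a match of letters in this window and was not tested as a binding site.

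In the mutant aorta, Sdf2l1 rose 3.25-fold, and it was the 1 gene of the 8 measured to pass the test (limma adjusted p under 0.05 over 32957 tested transcript clusters). The shares of all tested clusters that passed it were 1.54% higher and 0.558% lower. Creld2 stood 2.88-fold higher and Herpud1 1.85-fold lower, both just short of the threshold. The ER chaperones Hspa5, Hsp90b1, Calr and Hyou1 were 1.28-fold to 1.59-fold higher without passing it, and Dnajb9 differed by less than the spread between arrays. At an unadjusted p under 0.05 in limma, 6 of the 8 genes were higher, against 7.45% of all tested clusters, and 1 of the 8 was lower, against 6.72%. Among the 18122 tested clusters with 1 symbol these shares were 10.1% and 5.72%. The median difference of the 8 genes was 0.46 on the log2 scale, against -0.02 over all tested clusters. All differences below are Fbn1mgR/mgR minus wild-type in log2 signal.

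**Figure D1:**
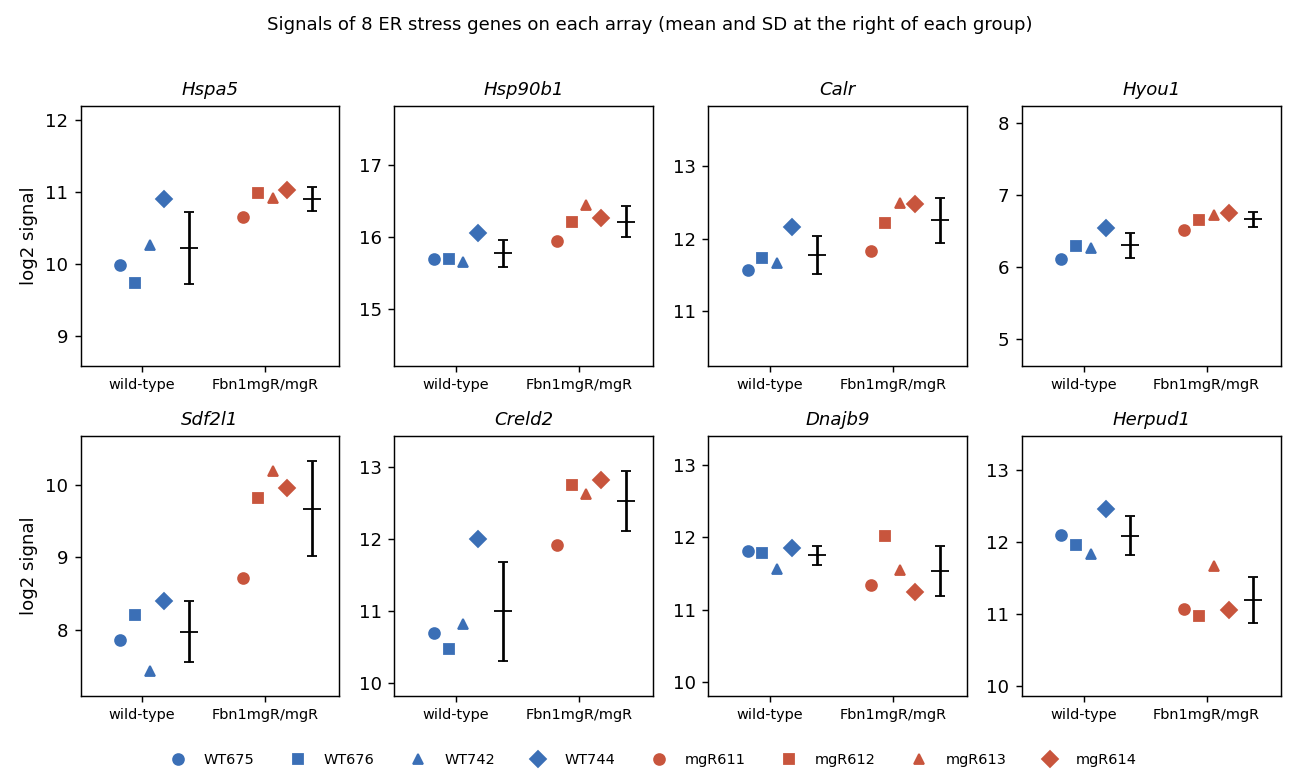
Each panel plots the log2 signal of 1 gene on the 4 wild-type (blue) and 4 Fbn1mgR/mgR (red) arrays, 1 symbol per array, with the genotype mean and SD (n = 4 each) beside the points; the vertical axes span the same number of log2 units in every panel and start at different levels above 0. Sdf2l1 (mutant above) and Herpud1 (mutant below) have no overlap between genotypes, and WT744 is the highest wild-type array in all 8 panels.

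Hspa5 encodes BiP, the ER Hsp70 that binds unfolded chains and holds the stress sensors inactive. Its log2 signals were 10.66, 10.99, 10.91 and 11.03 on mgR611 to mgR614, and 9.99, 9.74, 10.27 and 10.90 on WT675, WT676, WT742 and WT744. WT744 reached the mutant range and stood above mgR611, while the other wild-type arrays were below every mutant array. The difference was 0.67 ± 0.24 (SE, n = 4 per genotype), with a 95% interval of 0.14 to 1.20 and a limma adjusted p of 0.222. Without WT744 the difference was 0.90 (adjusted p = 0.0642), and over its 18 alternatives the adjusted p ran from 0.0642 to 0.406.

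Hyou1 encodes GRP170, a large Hsp70 relative that serves as nucleotide exchange factor for BiP. Its signals were 6.52, 6.66, 6.72 and 6.75 on the mutant arrays and 6.11, 6.29, 6.27 and 6.54 on the wild-type arrays. The genotypes overlapped only in that WT744 stood above mgR611. The difference of 0.36 ± 0.13 (SE, 95% interval 0.08 to 0.64) had a limma adjusted p of 0.221.

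Hsp90b1 encodes GRP94, the ER Hsp90, which folds integrins and Toll-like receptors among other clients. Its signals were 15.94, 16.21, 16.45 and 16.26 in the mutant and 15.69, 15.69, 15.66 and 16.05 in the wild-type arrays. Without WT744 the wild-type signals lay within a narrow band, and that array alone was above the lowest mutant array, mgR611. The difference was 0.44 ± 0.13 (SE, 95% interval 0.15 to 0.73, limma adjusted p = 0.145).

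Calr encodes calreticulin, a lectin chaperone that retains glycoproteins with immature sugars and buffers ER calcium. Its signals were 11.83, 12.21, 12.50 and 12.48 in the mutant and 11.56, 11.73, 11.66 and 12.16 in the wild-type arrays. WT744 was again the wild-type array inside the mutant range, and mgR611 the mutant array nearest to the wild-type ones. The difference was 0.48 ± 0.19 (SE, 95% interval 0.05 to 0.91, limma adjusted p = 0.291).

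Sdf2l1 encodes a soluble ER protein that works with the BiP cochaperone ERdj3. Its signals were 8.71, 9.83, 10.20 and 9.96 in the mutant arrays and 7.86, 8.20, 7.43 and 8.40 in the wild-type arrays. Every mutant array lay above every wild-type array, which held for 1 of the 8 genes and for 5.26% of all tested clusters, and mgR611 was the mutant array closest to the wild-type range. The difference was 1.70 ± 0.33 (SE, 95% interval 0.96 to 2.45, limma adjusted p = 0.0331). The call was lost when any array except mgR611 was left out. The adjusted p was 0.0722 without mgR612, 0.0904 without mgR613 and 0.0997 without mgR614, and it was 0.0963, 0.0683, 0.0788 and 0.0592 without WT675, WT676, WT742 and WT744 respectively. Without mgR611 it was 0.00564, with a difference of 2.02.

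Creld2 encodes a secretory-pathway protein with EGF-like domains whose transcript is induced by ER stress. Its signals were 11.92, 12.75, 12.62 and 12.81 in the mutant arrays and 10.69, 10.48, 10.82 and 12.00 in the wild-type arrays. WT675, WT676 and WT742 were more than 1 log2 unit below every mutant array, and WT744 stood above mgR611. The difference was 1.53 ± 0.33 (SE, 95% interval 0.78 to 2.28), with a limma adjusted p of 0.0534. It passed the threshold without WT744 (1.86, adjusted p = 0.0116) and without mgR611 (1.73, adjusted p = 0.0441), and over its alternatives the adjusted p ran from 0.0116 to 0.142.

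Dnajb9 encodes ERdj4, a BiP cochaperone that restrains IRE1 and is a target of XBP1. Its signals were 11.34, 12.02, 11.55 and 11.24 in the mutant and 11.81, 11.78, 11.56 and 11.85 in the wild-type arrays. The mutant arrays spread on both sides of the wild-type range, with mgR612 above it and the other three below it. The difference was -0.21 ± 0.18 (SE), its 95% interval ran from -0.61 to 0.19, and the limma adjusted p was 0.683.

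Herpud1 encodes a membrane protein of the complex that sends misfolded ER proteins to the proteasome. Its signals were 11.07, 10.98, 11.67 and 11.06 in the mutant arrays and 12.09, 11.96, 11.83 and 12.46 in the wild-type arrays. Every mutant array lay below every wild-type array, which held for 1 of the 8 genes and for 3.65% of all tested clusters, and mgR613 was the mutant array nearest to the wild-type range. The difference was -0.89 ± 0.20 (SE, 95% interval -1.33 to -0.45, limma adjusted p = 0.0543). Without mgR613 it was -1.05 and passed the threshold (adjusted p = 0.0268), and over its alternatives the adjusted p ran from 0.0268 to 0.141.

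**Figure D2:**
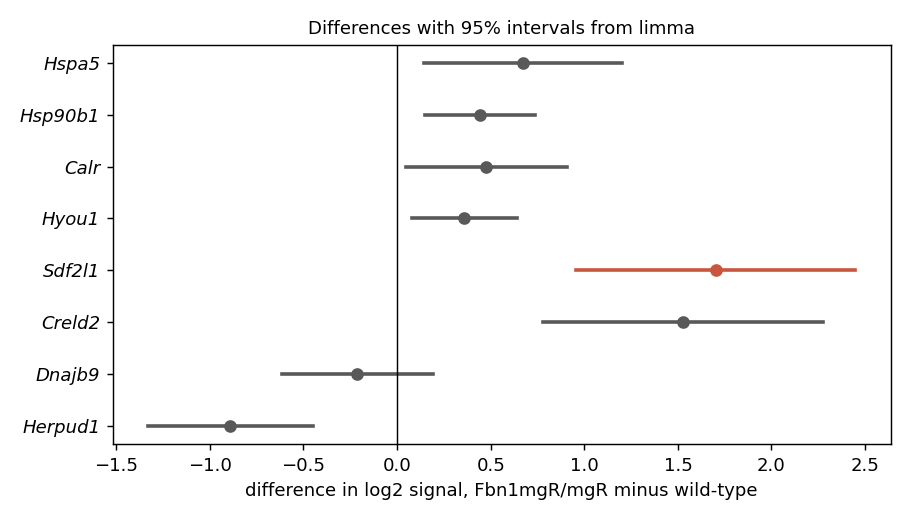
Points are Fbn1mgR/mgR minus wild-type differences in log2 signal for the 8 measured genes, with 95% intervals from limma (n = 4 arrays per genotype); Sdf2l1, in red, is the gene past the adjusted threshold. The intervals of Hspa5, Hsp90b1, Calr, Hyou1, Sdf2l1 and Creld2 lie above 0, that of Herpud1 lies below 0, and that of Dnajb9 includes 0.

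Whether the genes differed by unequal amounts was tested, after their values had been seen, by subtracting the log2 signals of a pair of genes on each array and comparing these values between genotypes. There were 28 pairs, and the exact two-sided permutation test over 70 labellings of the arrays has a smallest p of 0.0286. That smallest value was reached by 15 pairs, so none passed 0.05 after adjustment. Herpud1 reached the smallest p against each of the other 7 genes. Against Sdf2l1 this outcome was fixed by the signals given above. Neither gene overlapped between genotypes, and they differed in opposite directions. The pair tests reuse these signals and are no separate support for the differences of single genes. Sdf2l1 minus Herpud1 shifted by 2.59 between genotypes, Creld2 minus Herpud1 by 2.42, Hspa5 minus Herpud1 by 1.56 and Dnajb9 minus Herpud1 by 0.68. Sdf2l1 and Creld2 reached the smallest p against Hsp90b1, Calr and Dnajb9, with shifts of 1.05 to 1.92 in size. Hspa5, Hsp90b1, Calr and Hyou1 did not reach it among themselves: the largest shift was 0.31, for Hspa5 minus Hyou1 (exact permutation p = 0.171). Sdf2l1 minus Creld2 shifted by 0.17, with array values of -3.21 to -2.42 (mutant) and -3.60 to -2.28 (wild-type; exact permutation p = 0.629).

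The spread within a genotype was shared among the genes. WT744 was the highest wild-type array for 8 of the 8 genes, by a mean of 0.43 above the genotype mean, and mgR611 was the lowest mutant array for 6 of the 8, by a mean of 0.37 below it. The mean log2 signal of Hspa5, Hsp90b1, Calr, Hyou1, Sdf2l1 and Creld2, the 6 genes with a positive difference, was 10.93, 11.44, 11.57 and 11.55 on the mutant arrays. On the wild-type arrays it was 10.32, 10.36, 10.35 and 11.01. These 6 genes were picked by the sign of their difference, so their mean is no separate support for it. The mean of all 8 measured genes was 10.999, 11.456, 11.578 and 11.449 on the mutant arrays. On the wild-type arrays it was 10.725, 10.734, 10.688 and 11.295. WT744 stood above mgR611 on either mean, and the other wild-type arrays stood close together below both arrays.

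Pearson correlations of the deviations from the genotype mean across the 8 arrays describe this shared spread. They share the arrays and their scaling, and are given without a p. Among the 6 genes with a positive difference, the 15 pairs had r of 0.38 to 0.95 with a median of 0.84, the highest being Hspa5 with Creld2 (0.95) and Hsp90b1 with Calr (0.95). Herpud1 correlated with these 6 at 0.45 to 0.80, so within a genotype its deviations ran with theirs, although its difference between genotypes had the opposite sign. Dnajb9 correlated with the 7 other genes at 0.09 to 0.38.

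**Figure D3:**
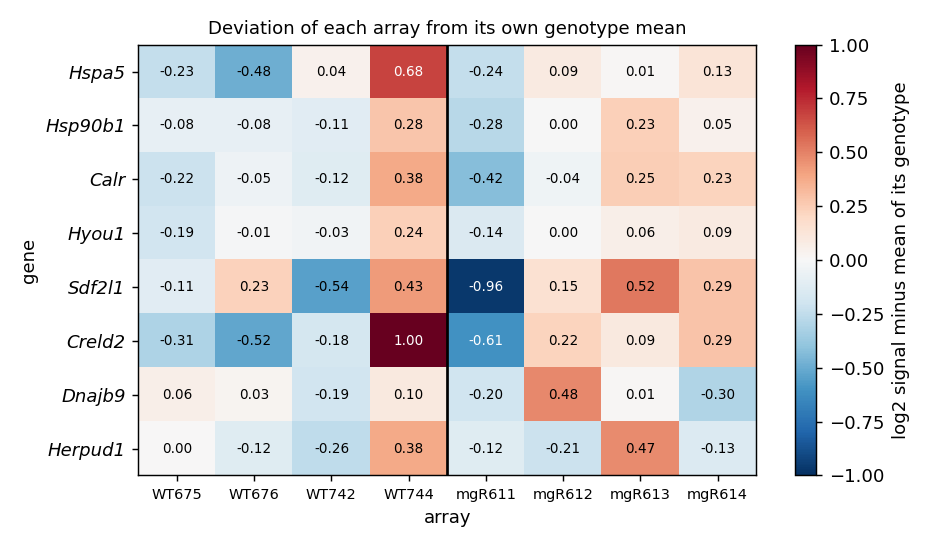
The colour and number in each cell give the log2 signal of 1 gene on 1 array minus the mean of that array's own genotype (4 arrays each), red above and blue below the mean, with the wild-type arrays left and the Fbn1mgR/mgR arrays right of the black line. The WT744 column is positive for all 8 genes, and the mgR611 column is negative for all 8.

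The genes outside the set whose deviations followed the mean of the 8 measured genes most closely were Ncapd3 (a condensin subunit), Zfp318, Mcm3 (a subunit of the replicative helicase), Lsm5, Prkcb, Dazap1, Atg2b and Ubr2. Their r was 0.95 to 0.99 over the 8 arrays, among 12400 genes ranked with a median r of 0.13, of which 48 had r over 0.9. The order follows mgR611 and WT744: Mcm3, for example, had 6.09 on mgR611 against 6.37 to 6.60 on the other mutant arrays, and 6.45 on WT744 against 5.90 to 5.95 on the other wild-type arrays. None of the 8 passed the test between genotypes, and their differences ran from -0.21 (Ubr2) to 0.49 (Prkcb).

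Markers of stress outside the ER separate the wild-type arrays too. The cytosolic Hsp70 gene Hspa1a gave 10.67 on WT742 and 10.98 on WT744, against 6.20 on WT675 and 6.16 on WT676, and in the mutant 7.77 on mgR611 against 5.63 to 5.94 on the other arrays. The mean of the 27 tested cytosolic and mitochondrial heat shock genes was 9.82 on WT742, 9.98 on WT744 and 9.76 on mgR611, against 9.11 to 9.28 on the other 5 arrays. Of the 8 ER genes, WT742 was the lowest wild-type array for 4, while for Hspa5 (10.27) and Creld2 (10.82) it stood above WT675 and WT676. The mutant array mgR611 was the lowest of its genotype for 6 of the 8. Atf3, a stress-responsive factor of the ATF4 and CHOP list described below and so not a marker of stress outside the ER alone, also separated these arrays. It gave 9.44 on WT744, 7.75 on WT742 and 5.71 to 6.71 on the other 6 arrays. The mean of the 24 tested genes of that list was 7.10 on WT744, 6.94 on WT742 and 6.76 to 6.88 on the other 6 arrays. The part of this array spread in the differences of the ER genes was not tested.

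Besides the effector genes, 8 lists of ER and stress genes were followed, none of which includes the 10 genes themselves. Over 215 list genes tested, 2 rose (Pdia6 and Sar1a) and 1 fell (Vldlr) in limma. Calls made up 1.54% (higher) and 0.558% (lower) of all tested clusters, and 2.22% and 0.56% of those with 1 symbol. Positive differences, counted for several lists below, made up 46.1% of all tested clusters and 50.9% of those with 1 symbol. The sensors and transducers of the response (13 tested) had 0 calls in limma; before adjustment 3 genes were higher and 0 lower (p under 0.05), and the median difference was 0.08. Atf6 was 0.31 ± 0.15 higher (SE, adjusted p = 0.397), Xbp1 0.43 ± 0.18 higher (adjusted p = 0.322) and Creb3l1, an ATF6-like factor of secretory cells, 0.54 ± 0.15 higher (adjusted p = 0.133). Xbp1 gave 11.31, 11.38, 11.65 and 11.77 in the mutant and 10.91, 11.19, 10.79 and 11.49 in the wild-type arrays, with WT744 once more inside the mutant range. Bak1, a pro-apoptotic channel protein that binds IRE1, was 0.50 ± 0.11 higher with an adjusted p of 0.0631. Ern1 (IRE1) and Eif2ak3 (PERK) differed by -0.30 ± 0.15 and 0.13 ± 0.13. Splicing of the Xbp1 transcript, cleavage of ATF6 and phosphorylation are not measured by these signals.

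The arm downstream of ATF4 and CHOP (24 tested) had a median difference of -0.01, and 0 of its genes were higher in limma, also before adjustment (p under 0.05). Its 1 call was Vldlr, a lipoprotein receptor gene, which fell by 0.68 ± 0.14 (SE, adjusted p = 0.0443). That call was kept without WT675 (adjusted p = 0.0367) and lost without any 1 of the other 7 arrays, mgR611, mgR612, mgR613, mgR614, WT676, WT742 and WT744, with adjusted p of 0.0665 to 0.130. Atf4 differed by 0.09 ± 0.22 (adjusted p = 0.914), Ddit3 (CHOP) by -0.26 ± 0.24 (adjusted p = 0.702), and Ppp1r15a, the phosphatase subunit that reverses the PERK signal, by -0.48 ± 0.34 (adjusted p = 0.610). Ddit3 gave 9.96, 9.76, 10.46 and 10.37 in the mutant and 10.18, 10.25, 10.17 and 11.01 in the wild-type arrays, with WT744 the highest of all 8. Slc3a2, an amino acid transporter chain, differed by -0.56, Nupr1 by 0.45 and Phgdh, of serine synthesis, by -0.29, with adjusted p of 0.410 to 0.513.

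Other ER chaperones and cochaperones (27 tested) had 0 calls in limma; before adjustment 8 were higher and 0 lower (p under 0.05), 19 of 27 differences were positive, and their median was 0.12. Fkbp11, a prolyl isomerase of secretory cells, was 1.15 ± 0.25 higher (SE, adjusted p = 0.0538) without overlap between genotypes, at 6.61, 6.87, 7.59 and 7.77 in the mutant and 6.08, 5.92, 6.29 and 5.96 in the wild-type arrays. It passed the threshold without mgR611 (adjusted p = 0.0232). Dnajb11, the ERdj3 cochaperone with which the Sdf2l1 protein works, was 0.48 ± 0.14 higher (adjusted p = 0.144), and Uggt1, the glucose sensor of the calreticulin cycle, 0.48 ± 0.15 higher (adjusted p = 0.162). Fkbp2 was 0.40 ± 0.15 higher (adjusted p = 0.266). Canx, the membrane-bound relative of calreticulin, was 0.40 ± 0.16 higher (adjusted p = 0.311) and Sdf2, the close relative of Sdf2l1, 0.14 ± 0.17 higher (adjusted p = 0.790).

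Among protein disulfide isomerases and oxidases (22 tested), 1 rose and 0 fell; before adjustment 7 were higher and 2 lower in limma (p under 0.05), and 18 differences were positive, with a median of 0.26. Pdia6, an isomerase that binds BiP, rose by 0.85 ± 0.16 (SE, limma adjusted p = 0.0297). Its signals were 11.35, 11.71, 11.84 and 11.61 in the mutant and 10.87, 10.79, 10.46 and 11.00 in the wild-type arrays, with WT744 the highest wild-type array but below all mutant arrays. The call was kept without mgR611 (adjusted p = 0.0271) and lost without any 1 of mgR612, mgR613, mgR614, WT675, WT676, WT742 and WT744, with adjusted p of 0.0554 to 0.0850. Gpx8, an ER peroxidase, was 0.67 ± 0.15 higher (adjusted p = 0.0582), Ero1l, the oxidase that recharges the isomerases, 0.60 ± 0.20 higher (adjusted p = 0.210), and Tmx4, a membrane thioredoxin, differed by -0.52 ± 0.14 (adjusted p = 0.104). P4hb, the isomerase that is also a subunit of collagen prolyl hydroxylase, was 0.32 ± 0.12 higher (adjusted p = 0.271).

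Genes of ER-associated degradation (32 tested), the pathway of Herpud1, had 0 calls in limma; before adjustment 2 were higher and 1 lower (p under 0.05), and the median was 0.12. The difference of Herpud1 lay outside their whole range of -0.38 to 0.59. Edem1, a mannosidase-like factor induced by XBP1, was 0.59 ± 0.22 higher (adjusted p = 0.260) and Selenos 0.44 ± 0.16 higher (adjusted p = 0.256), while Vcp, the ATPase that extracts the substrates, differed by 0.26 and Bag6 by -0.38. Syvn1, the ubiquitin ligase Hrd1 with which Herpud1 works, differed by -0.28 ± 0.17 (adjusted p = 0.551), and Sel1l, its partner, by -0.01 ± 0.14 (adjusted p = 0.986).

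The translocon, signal peptidase and oligosaccharyltransferase (35 tested) had 0 calls in limma; before adjustment 7 were higher and 0 lower (p under 0.05), and 33 of 35 differences were positive with a median of 0.17. Magt1 and Ostc, of the oligosaccharyltransferase, were 0.75 ± 0.21 and 0.67 ± 0.21 higher (adjusted p = 0.118 and 0.177). Spcs3, of the signal peptidase, was 0.66 ± 0.19 higher (adjusted p = 0.131) and Sec61b, of the translocon, 0.47 ± 0.17 higher (adjusted p = 0.236). In ER to Golgi transport (35 tested) 1 gene rose and 0 fell; before adjustment 6 were higher and 0 lower in limma (p under 0.05), and the median was 0.12. Sar1a, the GTPase that starts the COPII coat, rose by 0.53 ± 0.11 (SE, limma adjusted p = 0.0421). This call was lost without any 1 of the 8 arrays (adjusted p 0.0729 to 0.121). Lman1, Arcn1 and Sar1b were 0.67, 0.40 and 0.34 higher without passing (adjusted p 0.168 to 0.268).

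Cytosolic and mitochondrial heat shock proteins (27 tested), most of which answer to the heat shock factor HSF1, had 0 calls in limma; before adjustment 1 was higher and 2 lower (p under 0.05), and the median was -0.05. The lowest p in this list belonged to Hspb8 (-0.42), Hspb6 (-0.44), Hspb2 (0.66) and Hspa1l (-0.86), with adjusted p of 0.257 to 0.420. The row used for Hspa8, the brightest with that symbol, stood at the ceiling of the table, 19.93, on 7 arrays. No difference can be seen there.

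**Figure D4:**
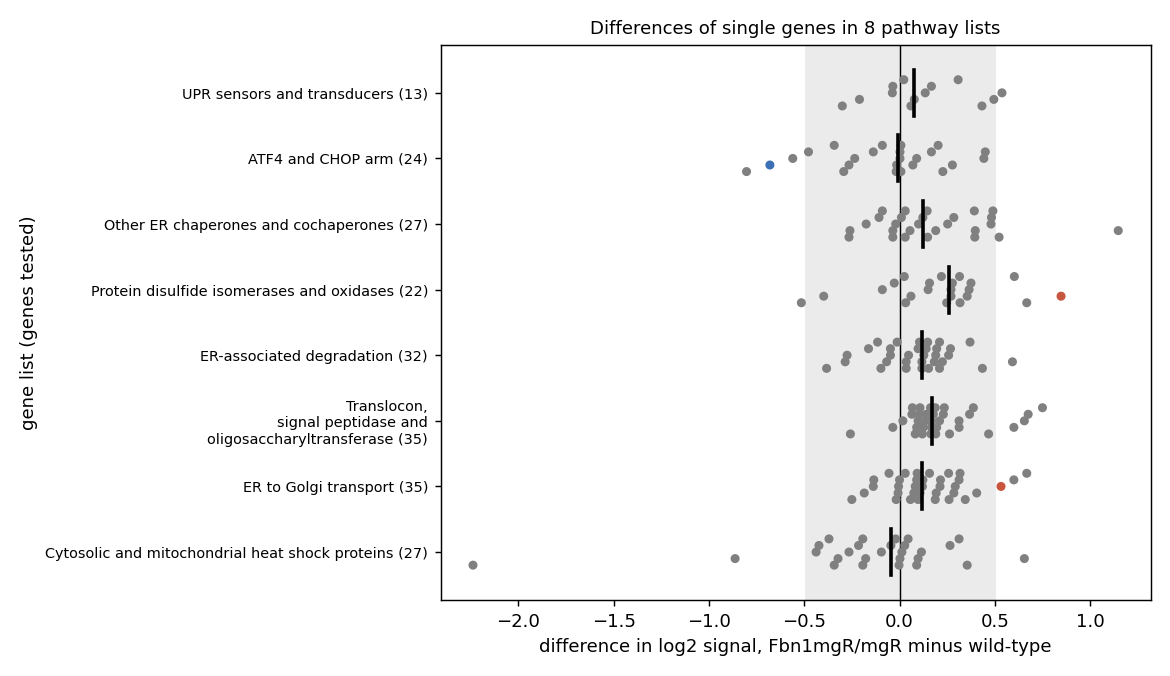
Each point is 1 tested gene's Fbn1mgR/mgR minus wild-type difference in log2 signal in 8 gene lists (number tested in parentheses), black bars are list medians, the grey band spans the 5th to 95th percentile of all tested clusters (-0.49 to 0.50), red and blue points passed the adjusted threshold as higher or lower. List medians run from -0.05 to 0.26, and the coloured points are Pdia6, Sar1a and Vldlr.

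The genes with an ERSE are another grouping, made by promoter letters, which overlaps the 10 genes and these lists. Among all genes with a RefSeq promoter entry, 35 hold an ERSE, 27 of them have a row with 1 symbol and 20 were tested. Hspa5, Hsp90b1, Calr and Creld2 were higher in all 4 cases at an unadjusted p under 0.05 in limma, with a median difference of 0.58. The share higher at that p was 7.45% of all tested clusters and 10.1% of those with 1 symbol. Sdf2l1, whose window holds no ERSE, and Hyou1, which had no promoter entry, were higher at that p as well. The other 16 tested genes with an ERSE had 10 positive differences, against 50.9% positive over tested clusters with 1 symbol. They had 1 call (Pdia6, higher) and a median of 0.06. Before adjustment 3 of them were higher and 1 lower in limma (p under 0.05). Of those in the lists above, Canx, Dnajc3 (0.49 ± 0.22), Derl3 (0.27 ± 0.13), Ero1b (Ero1lb in the platform annotation, 0.22 ± 0.14) and Pdia6 had positive differences and Syvn1 a negative one. The lowest differences were those of Xlr3b (-1.20), Xlr3c and Xlr3a (-0.73, the 1 gene lower before adjustment), X-linked genes of a family with near-identical copies. Each was higher on WT675 and WT676 than on every other array, so the counts and the median may hold 1 signal more than once.

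Cell type markers moved between the genotypes as well, and bulk signals cannot tell apart fewer cells of a type from less RNA per cell. Of 20 macrophage markers tested, 17 rose, and their summed signal (log2) was 15.8 to 17.0 in the mutant against 13.8 to 14.5 in the wild-type arrays. Their defining marker Adgre1 gave 8.12 to 8.94 against 6.40 to 7.24. Plasma cells are rich in ER chaperones. Of 12 tested plasma and B cell markers, 1 rose (Fcrla), 6 were higher and 0 lower before adjustment in limma (p under 0.05), and 11 had a positive difference. Txndc5 and Derl3 of this list also stand in the ER lists above. The summed signal of this list was 9.58 to 9.88 against 9.24 to 9.49. Jchain, a defining plasma cell gene, gave 4.64, 5.77, 4.05 and 4.30 on the mutant arrays against 3.66 to 4.10 on the wild-type ones, and Mzb1, an ER chaperone of these cells, 3.12 to 4.06 against 3.03 to 3.37. For comparison, the 95th percentile of olfactory receptor clusters, taken as a reference for dim signals, was 4.12.

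Of 13 fibroblast markers, 1 rose (Col1a1) and 0 fell in limma; before adjustment 3 were higher and 2 lower (p under 0.05), the lower ones being Gsn (-1.03) and Fbln1 (-0.79), both without overlap between genotypes. Their summed signal was 19.3 to 19.9 against 19.7 to 19.9 in the wild-type arrays. Of 12 smooth muscle markers, 0 passed the test in limma and 3 were lower before adjustment (p under 0.05). Only 2 had a positive difference, and the median was -0.46. Their summed signal, to which the brightest genes add most, was 19.8 to 20.4 against 20.3 to 20.6. The defining markers Myh11 (12.92 to 14.57 against 14.33 to 15.44) and Acta2 (19.14 to 19.49 against 19.49 to 19.57) were far above the dim reference on every array. Brown fat markers had a mean of 9.61 on mgR614 and 9.76 on WT676 against 6.34 to 7.78 on the other arrays. With that mean as a covariate the difference of Sdf2l1 was 1.72 (adjusted p = 0.0320), that of Creld2 1.53 (adjusted p = 0.0701) and that of Herpud1 -0.89 (adjusted p = 0.0696). The part of macrophages and of the other cell types in the differences of the ER genes was not tested.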

How the data were processed

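Aortic RNA of 4 Fbn1mgR/mgR and 4 wild-type samples was measured on 8 arrays, and groups came from the genotype label. The authors deposited log2 signals, 1 per transcript cluster and array. They come from the Transcriptome Analysis Console, per the submitters' processing notes, and how they were normalized is not given in the sources used here. This table runs from 2.11 to 19.93, its ceiling, and array medians lay between 3.95 and 4.07. Pearson correlations across clusters were 0.989 to 0.993 within genotypes and 0.984 to 0.990 between them. The number of arrays limits the precision, with a median standard error of 0.152.

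Clusters were named through the platform annotation (30604 with 1 symbol, 2146 with several, 33206 with none). Symbols of 827 were updated through RefSeq of assembly GRCm38.p6, to which 22818 matched by gene ID. The genotypes were compared with limma 3.58.1 in R 4.3.3 (lmFit, eBayes with an intensity trend over all 65956 clusters), and p-values were adjusted by Benjamini-Hochberg over the 32957 clusters whose mean exceeded the median of the means, 4.01. This fit gave each adjusted p of a gene, with a threshold of 0.05, and its steps were checked on data with known answers. Python 3.11.15, pandas 2.3.3 and matplotlib 3.10.9 read the promoters and drew the plots.

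The genes, the lists and the tests were chosen with earlier results of these data known. Named genes are the 10 genes, up to 4 genes with the smallest p of each list, the 8 with the most similar deviations, and the first genes of each marker list; other genes were named after their values were seen, as well-known parts of the pathway. The tests of gene pairs and the account of ERSE genes were added after the values were seen. The 12 marker lists also covered white fat, mesothelium, nerve, striated muscle, T and NK cells, mast cells and neutrophils. Each of these 6 had 0 calls in limma, with 1, 2, 0, 1, 2 and 0 genes at an unadjusted p under 0.05. Those of T and NK cells were higher and the rest lower. Positive differences numbered 2 of 10, 1 of 10, 3 of 4, 2 of 8, 5 of 9 and 11 of 11 in the same order. The mast cell and neutrophil markers had a median of 0.63, with array means of 6.36 to 6.86 (mutant) against 5.65 to 6.20 (wild-type). Of 11 endothelial markers 1 fell (Erg, -1.20), and 4 were lower and 0 higher before adjustment (p under 0.05), with a median of -0.49. Of 11 brown fat markers 0 passed, nor did any at an unadjusted p under 0.05. Alternatives changed the variance prior, the filter, the features tested, the normalization, a covariate, array weights, the threshold and the arrays included.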

Additional observations from a re-analysis of the deposited data

Results flagged for a closer look

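In 96 groups of 4 arrays (48 genes named above, 2 genotypes), 11 had 1 array far from the other three by Dixon's criterion at the 95% level, a gap that chance alone gives in about 1 of 20 groups. Hsp90b1 gave 16.05 on WT744 against 15.66 to 15.69 on the other wild-type arrays, and Herpud1 gave 11.67 on mgR613 against 10.98 to 11.07 on the other mutant arrays. Atf6 gave 9.83 on WT675 against 10.25 to 10.29, and Edem1 gave 9.70 on WT744 against 8.91 to 8.97.

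The other cases are genes that had been picked because they followed the deviations of the ER genes, so the arrays they set apart are not independent of those above. On WT744, Ncapd3 gave 6.68, Zfp318 6.25, Mcm3 6.45 and Lsm5 6.90. On mgR611, Lsm5 gave 6.55, Prkcb 5.61 and Dazap1 7.23.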

How the results depend on the processing

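No paired analysis was possible because the genotypes share no replicate number. The count of ER genes past the threshold was 1 higher and 0 lower. It was 2 higher and 1 lower with clusters above the upper quartile of signal, with clusters of 1 symbol, and at an adjusted p under 0.10. It was 0 higher with no filter (more clusters tested) and at an adjusted p under 0.01, and 1 lower with no intensity trend and with quantile normalization. Leaving out 1 array gave 0 to 2 higher and 0 to 1 lower. Sdf2l1 lost its call with no filter too (adjusted p = 0.0647). Over all clusters, 507 were higher and 184 lower; leaving out 1 array gave 272 to 521 higher and 67 to 146 lower, and no filter gave 99 lower. A fit on the filtered clusters alone, chosen after seeing the data, gave 460 and 153 and the same ER gene counts.

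Each of the 8 measured ER genes kept the sign of its difference in its 18 alternatives. Signs turned for genes near 0: leaving out 1 array gave Lsm5 -0.0725 to 0.0075 (positive without WT744) and Atg2b -0.01 to 0.0867 (negative without mgR613 or WT675); the cause was not tested. Outside leave-one-out fits, Pdia6 lost its call with no filter (adjusted p = 0.0583) and median centring (0.0612). Sar1a lost it with robust eBayes (0.0552), no filter (0.0821), quantile normalization (0.153), median centring (0.0732) and the brown fat covariate (0.0533), and Vldlr with no filter (0.0861), median centring (0.0753) and the covariate (0.0595). Averaging several rows per gene gave no other value, since each ER gene had 1 row.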
